A study of Mus musculus with 1307 samples.

Results

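Nitric oxide, made by a synthase in one cell, diffuses into a neighbouring cell and switches on soluble guanylate cyclase, which makes cyclic GMP (cGMP). Membrane guanylate cyclases make the same messenger when a natriuretic peptide binds outside the cell. In vascular smooth muscle cGMP activates a protein kinase that lowers calcium and the calcium sensitivity of contraction, and phosphodiesterases break cGMP down again. The 7 genes described here stand for the steps of this route. Nos3 encodes the endothelial nitric oxide synthase, Gucy1a1 and Gucy1b1 the alpha and beta subunit of soluble guanylate cyclase, and Npr1 the membrane guanylate cyclase that binds atrial natriuretic peptide. Prkg1 encodes the cGMP-dependent protein kinase, Pde5a a phosphodiesterase specific for cGMP, and Pde3a a phosphodiesterase that hydrolyses cAMP and is inhibited by cGMP. The genes were chosen by name, and all 7 had a row among the 46517 genes of the table. A list of 57 other genes of the same pathway, of which 56 were measured, is described after them.

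Read counts came from 1307 single cells of adult mouse hearts, by Smart-Seq2, which reads along the whole transcript and carries no molecular identifiers. Double-reporter mice (ACTA2GFP:CSPG4dsRED) carry green fluorescent protein under control of Acta2, the smooth muscle actin gene, and a red fluorescent protein under control of Cspg4, the NG2 proteoglycan gene of mural cells, so that the reporters mark smooth muscle cells and pericytes. They gave 949 cells of 3 mice (368, 245 and 336). CSPG4dsRED and ACTA2GFP mice carry 1 reporter each and gave 3 cells of 1 mouse each. C57BL/6 mice without a reporter gave 352 cells of 3 mice, 347 of them from mouse 1. All were 8 to 30 weeks old. The study text calls them male, while the labels call double-reporter mouse 3 female and the ACTA2GFP cells part female and part male. The 4 mice with many cells had 1 plate apiece, so mouse and plate cannot be told apart, and the sort gate is not stated in the sources used here. Cells held between 50476 and 811982 counts (median 274702).

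Each cell was placed in a class by marker genes that exclude the 7 genes. A marker counted as on at 100 CPM (a gene's counts divided by the cell's total and scaled to the same total in every cell). A class needed at least 50% of its markers on and a lead of 20 percentage points over the next class. Cells led by the endothelial and lymphatic markers without that lead were an exception and were classed as lymphatic endothelial-like. In double-reporter mice 1, 2 and 3 this gave 120, 77 and 18 smooth muscle-like cells, 50, 14 and 8 pericyte-like cells, 33, 11 and 13 Schwann-like cells (peripheral glia), and 78, 109 and 250 fibroblast-like cells. A further 27, 5 and 4 cells were mural-like with both the smooth muscle and the pericyte markers. C57BL/6 mouse 1 gave 183 capillary endothelial-like, 49 endocardial-like (the lining of the heart chambers), 26 other endothelial-like and 16 lymphatic endothelial-like cells. The summed level of the 8 smooth muscle markers was 18340, 24080 and 20620 CPM in smooth muscle-like cells of the 3 double-reporter mice, 3037 to 3657 in pericyte-like, 531 to 760 in Schwann-like and 669 to 1939 in fibroblast-like cells. A second class had at least 50% of its markers on in 78 of the 216 smooth muscle-like cells of all mice, 35 of 74 pericyte-like, 16 of 60 Schwann-like and 59 of 440 fibroblast-like cells, and no doublet caller was run. In all, 141 cells carried the markers of 2 classes about equally and entered no class. The classes are rebuilt from expression, so the tests below compare cells chosen by other genes of the same libraries.

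Levels are given per mouse from the summed counts of its cells in a class. Classes were compared over the 3 double-reporter mice with edgeR's quasi-likelihood test on these sums, with the mouse as a block and Benjamini-Hochberg adjustment over the 16107 genes tested. All 7 genes passed the filter on low counts. Nos3, whose counts in these 4 classes came from few cells, is described by its values only. With the mouse as a block, the p-values measure how far class differences varied among the 3 mice, which are also 3 plates. In bulk sums like these, fewer cells with a transcript and less of it per cell cannot be told apart, so shares of cells are given as well.

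The soluble guanylate cyclase subunits were much higher in both mural classes than in fibroblast-like and Schwann-like cells, and every mouse showed the same order of classes for Gucy1a1. Gucy1a1 stood at 1506, 2081 and 1966 CPM in smooth muscle-like cells of double-reporter mice 1, 2 and 3, at 1137, 1611 and 1447 in pericyte-like cells, at 4.87, 5.68 and 3.46 in Schwann-like cells and at 158.8, 221.5 and 239.9 in fibroblast-like cells. The 2 mural classes lay close together, fibroblast-like cells below them and Schwann-like cells far below all others, with no overlap between mural, Schwann-like and fibroblast-like values. The means over mice were 1851 CPM ± 304 (smooth muscle-like cells), 1398 ± 240.5 (pericyte-like), 4.67 ± 1.13 (Schwann-like) and 207 ± 42.5 (fibroblast-like), each with its SD and n = 3.

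Gucy1b1 followed a similar pattern with the mural classes in the other order. Its level was 463, 947 and 641 CPM in smooth muscle-like cells, 674, 1595 and 826 in pericyte-like cells, 2.08, 3.55 and 0 in Schwann-like cells and 44.8, 69.0 and 62.1 in fibroblast-like cells of mice 1, 2 and 3. In each of the 3 mice the pericyte-like level was above the smooth muscle-like one, whereas the ranges of the 2 classes over mice overlapped. Mural-like cells with both marker sets had, in mice 1 and 2, 1368 and 1573 CPM of Gucy1a1 and 594 and 1813 CPM of Gucy1b1.

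**Figure D1:**
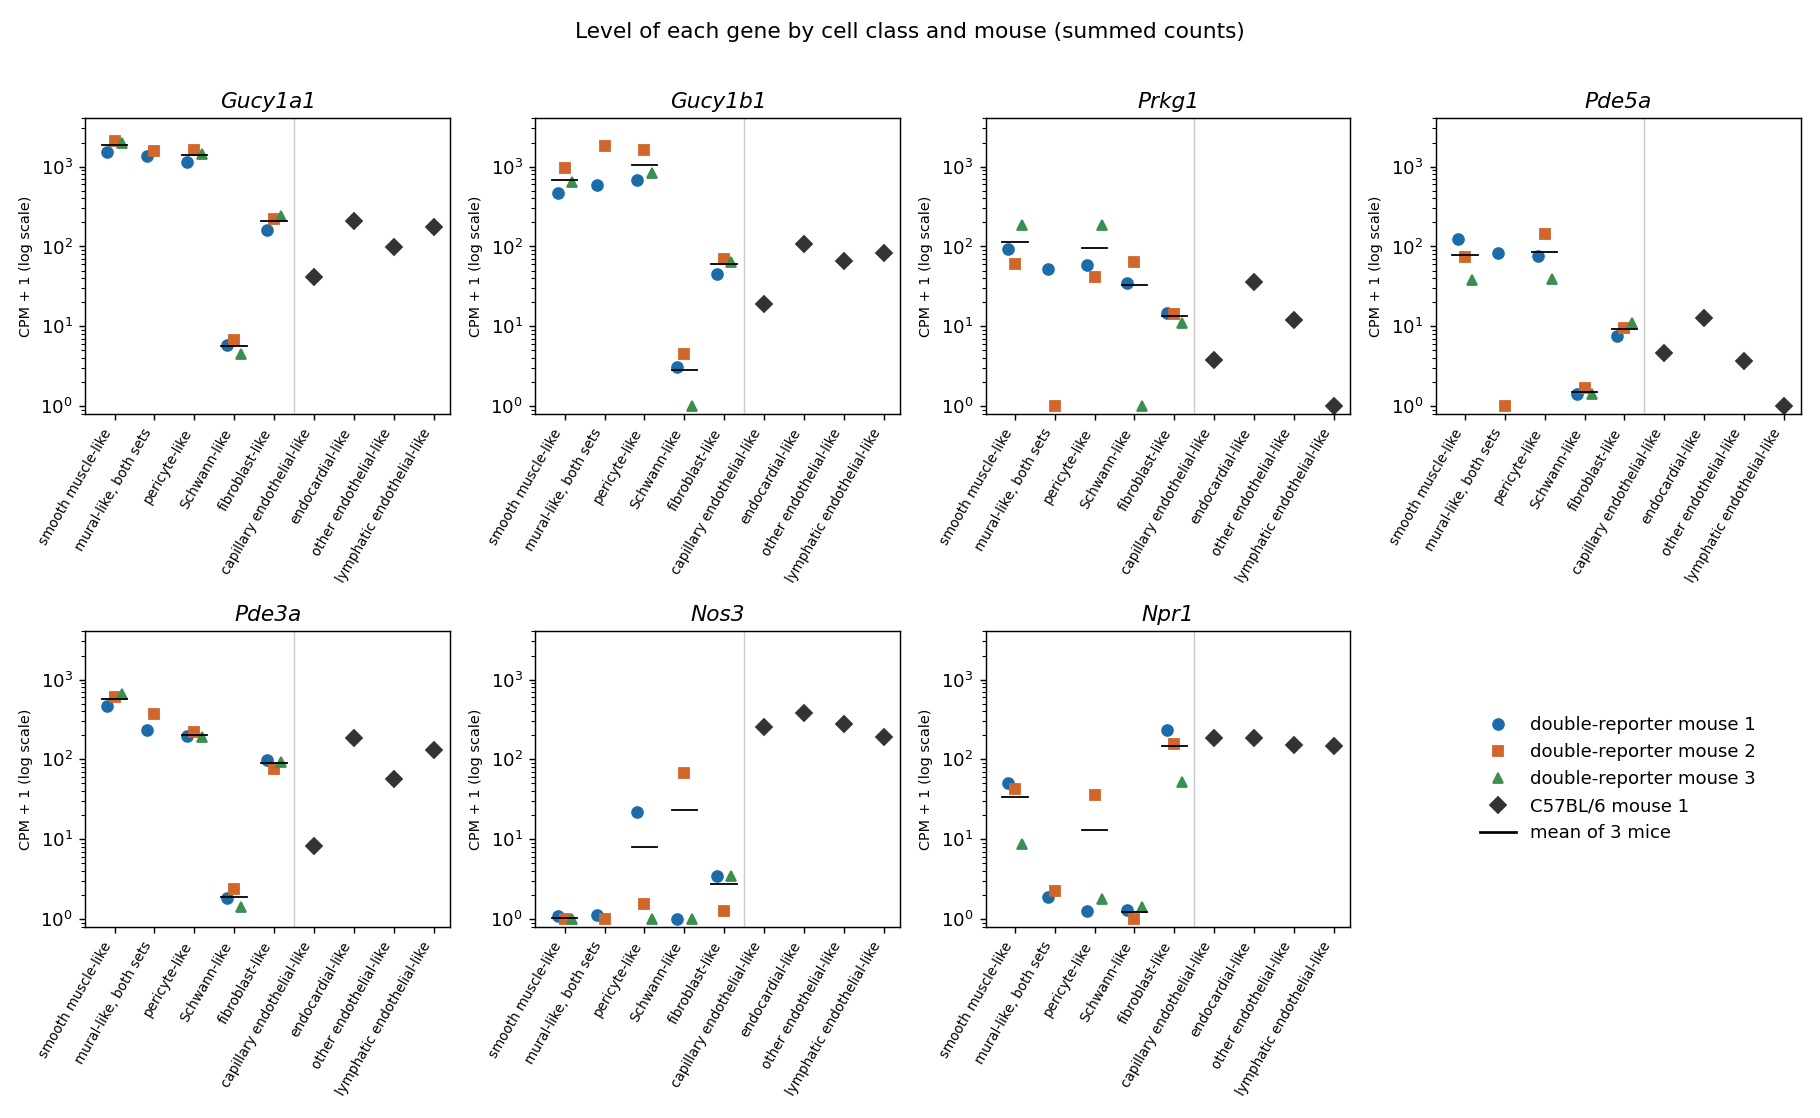
Level of each of the 7 genes by cell class, as CPM + 1 of summed counts on a log scale; each point is 1 mouse (at least 5 cells), and a bar is the mean of 3 double-reporter mice. Gucy1a1 lay between 1137 and 2081 CPM in smooth muscle-like and pericyte-like cells and below 6 CPM in Schwann-like cells, whereas Nos3 reached 375 CPM in endocardial-like cells of the C57BL/6 mouse.

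Against fibroblast-like cells, Gucy1a1 was 9.08-fold higher in smooth muscle-like cells (log2 change 3.18, SE 0.257, edgeR adjusted p = 0.000271) and 7.05-fold higher in pericyte-like cells (2.82, SE 0.253, edgeR adjusted p = 0.000254). Gucy1b1 was 11.4-fold higher in smooth muscle-like cells (3.51, SE 0.569, edgeR adjusted p = 0.00907) and 17.2-fold higher in pericyte-like cells (4.10, SE 0.585, edgeR adjusted p = 0.00318). Both subunits were also higher in smooth muscle-like than in Schwann-like cells, by a log2 change of 8.52 for Gucy1a1 (SE 0.334, edgeR adjusted p = 6.01e-07) and 8.40 for Gucy1b1 (SE 0.734, edgeR adjusted p = 6.96e-05). Schwann-like cells in turn had less of both than fibroblast-like cells, with log2 changes of -5.34 (SE 0.293, edgeR adjusted p = 5.69e-06) and -4.88 (SE 0.644, edgeR adjusted p = 0.00125). Between smooth muscle-like and pericyte-like cells neither subunit passed the test: the log2 change was 0.36 for Gucy1a1 (SE 0.237, edgeR adjusted p = 0.536) and -0.59 for Gucy1b1 (SE 0.518, edgeR adjusted p = 0.68). A p above the threshold does not show that the 2 classes had the same level. For Gucy1b1 against fibroblast-like cells, leaving out mouse 1 or 2 ended the call in smooth muscle-like cells (edgeR adjusted p = 0.144 and 0.194) and in pericyte-like cells (edgeR adjusted p = 0.0767 and 0.105), while the changes stayed at 3.54 and 3.40, and at 4.11 and 3.81.

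Fibroblast-like sums held cells with smooth muscle markers. Without the cells in which a second class had at least 50% of its markers on, the smooth muscle-like against fibroblast-like change was 3.62 for Gucy1a1 and 3.83 for Gucy1b1, both called (edgeR adjusted p = 0.000712 and 0.00587). The differences were as large without those cells.

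The 2 subunit genes are neighbours. Gucy1a1 (ENSMUSG00000033910) lies at chr3:82092427-82145789 and Gucy1b1 (ENSMUSG00000028005) at chr3:82032006-82074689, both on the minus strand of GRCm38, with 17737 bases between them. Because their levels moved together, the promoters that RefSeq gives on GRCm38.p6 are printed for both, from 250 bases before to 50 after the start, in the direction of transcription. The promoter of Npr1, which had another pattern, follows for comparison. Capitals mark matches on either strand to GGGCGG (GC box), CANNTG (E-box) or TGGGAA (the core recognised by the Notch effector RBPJ). The Gucy1a1 promoters are at chr3:82145024-82145323 and chr3:82145601-82145900, that of Gucy1b1 at chr3:82074662-82074961 and that of Npr1 at chr3:90465817-90466116, all on the minus strand.
Gucy1a1 promoter 1: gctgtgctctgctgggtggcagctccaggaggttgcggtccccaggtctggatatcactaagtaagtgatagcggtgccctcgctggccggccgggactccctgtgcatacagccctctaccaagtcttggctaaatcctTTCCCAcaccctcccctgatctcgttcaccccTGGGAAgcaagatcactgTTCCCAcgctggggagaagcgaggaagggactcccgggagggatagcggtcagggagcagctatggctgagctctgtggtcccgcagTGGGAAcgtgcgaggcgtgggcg
Gucy1a1 promoter 2: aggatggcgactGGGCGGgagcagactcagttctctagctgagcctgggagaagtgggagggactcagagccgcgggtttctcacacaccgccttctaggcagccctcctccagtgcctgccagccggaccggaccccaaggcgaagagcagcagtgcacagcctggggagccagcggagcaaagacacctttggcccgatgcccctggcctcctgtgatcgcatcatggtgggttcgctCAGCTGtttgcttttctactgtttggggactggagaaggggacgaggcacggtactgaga
Gucy1b1 promoter: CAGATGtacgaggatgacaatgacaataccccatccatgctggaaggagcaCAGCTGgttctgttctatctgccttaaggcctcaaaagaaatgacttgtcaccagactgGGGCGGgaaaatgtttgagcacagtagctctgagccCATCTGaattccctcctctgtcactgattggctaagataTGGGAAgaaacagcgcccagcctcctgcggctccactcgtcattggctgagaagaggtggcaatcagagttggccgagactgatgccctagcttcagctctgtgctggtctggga
Npr1 promoter: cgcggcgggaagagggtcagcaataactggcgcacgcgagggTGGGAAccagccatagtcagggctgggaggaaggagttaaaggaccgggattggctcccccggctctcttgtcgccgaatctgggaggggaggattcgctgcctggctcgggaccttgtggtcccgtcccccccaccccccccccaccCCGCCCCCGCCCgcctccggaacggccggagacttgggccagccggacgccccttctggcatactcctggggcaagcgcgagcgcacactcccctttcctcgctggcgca
Promoter 1 of Gucy1a1 held 4 matches to TGGGAA, those of Gucy1b1 and Npr1 held 1 each, and 25.4% of the 32544 promoters in the table held at least 1. The Gucy1b1 window held 3 E-boxes (72.3% of all promoters hold 1 or more) and 1 GC box (35.9%), promoter 2 of Gucy1a1 1 of each, and that of Npr1 2 GC boxes. TATAAA, found in 13.6% of promoters, and the CArG box recognised by serum response factor, in 1.64%, had no match in these 4 windows, nor in those of Pde5a and Prkg1. In the printed windows the matched motifs did not overlap one another. A match describes letters in the window and was not tested for binding.

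Counted cell by cell, nearly all mural cells held both subunits. Of 216 smooth muscle-like cells 214 had counts of both, and the other 2 had Gucy1b1 alone. Of 74 pericyte-like cells 71 had both and 3 had Gucy1b1 alone, and all 36 mural-like cells with both marker sets had both. Among 60 Schwann-like cells 20 had both, 20 Gucy1a1 alone, 4 Gucy1b1 alone and 16 neither. Among 440 fibroblast-like cells 231 had both, 136 had Gucy1a1 alone, 37 Gucy1b1 alone and 36 neither.

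A count in a cell is a lax test at this depth. Gucy1a1 was counted in 57.8% ± 20.8 of Schwann-like cells (SD, n = 3 mice) although its level there was under 6 CPM. After every cell was thinned to 50000 counts the share was 99.0% in smooth muscle-like, 93.9% in pericyte-like, 25.9% in Schwann-like and 53.2% in fibroblast-like cells. With at least 10 CPM required, it was 97.4%, 94.6%, 14.1% and 48.8% in the same order of classes. The median smooth muscle-like cell had 1423, 1983 and 2265 CPM in mice 1, 2 and 3. The median fibroblast-like cell had 8.85, 6.69 and 36.1 CPM, so the fibroblast-like sum came from a part of its cells. In no fibroblast-like sum did a single cell supply more than 18.8% of the Gucy1a1 counts.

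**Figure D2:**
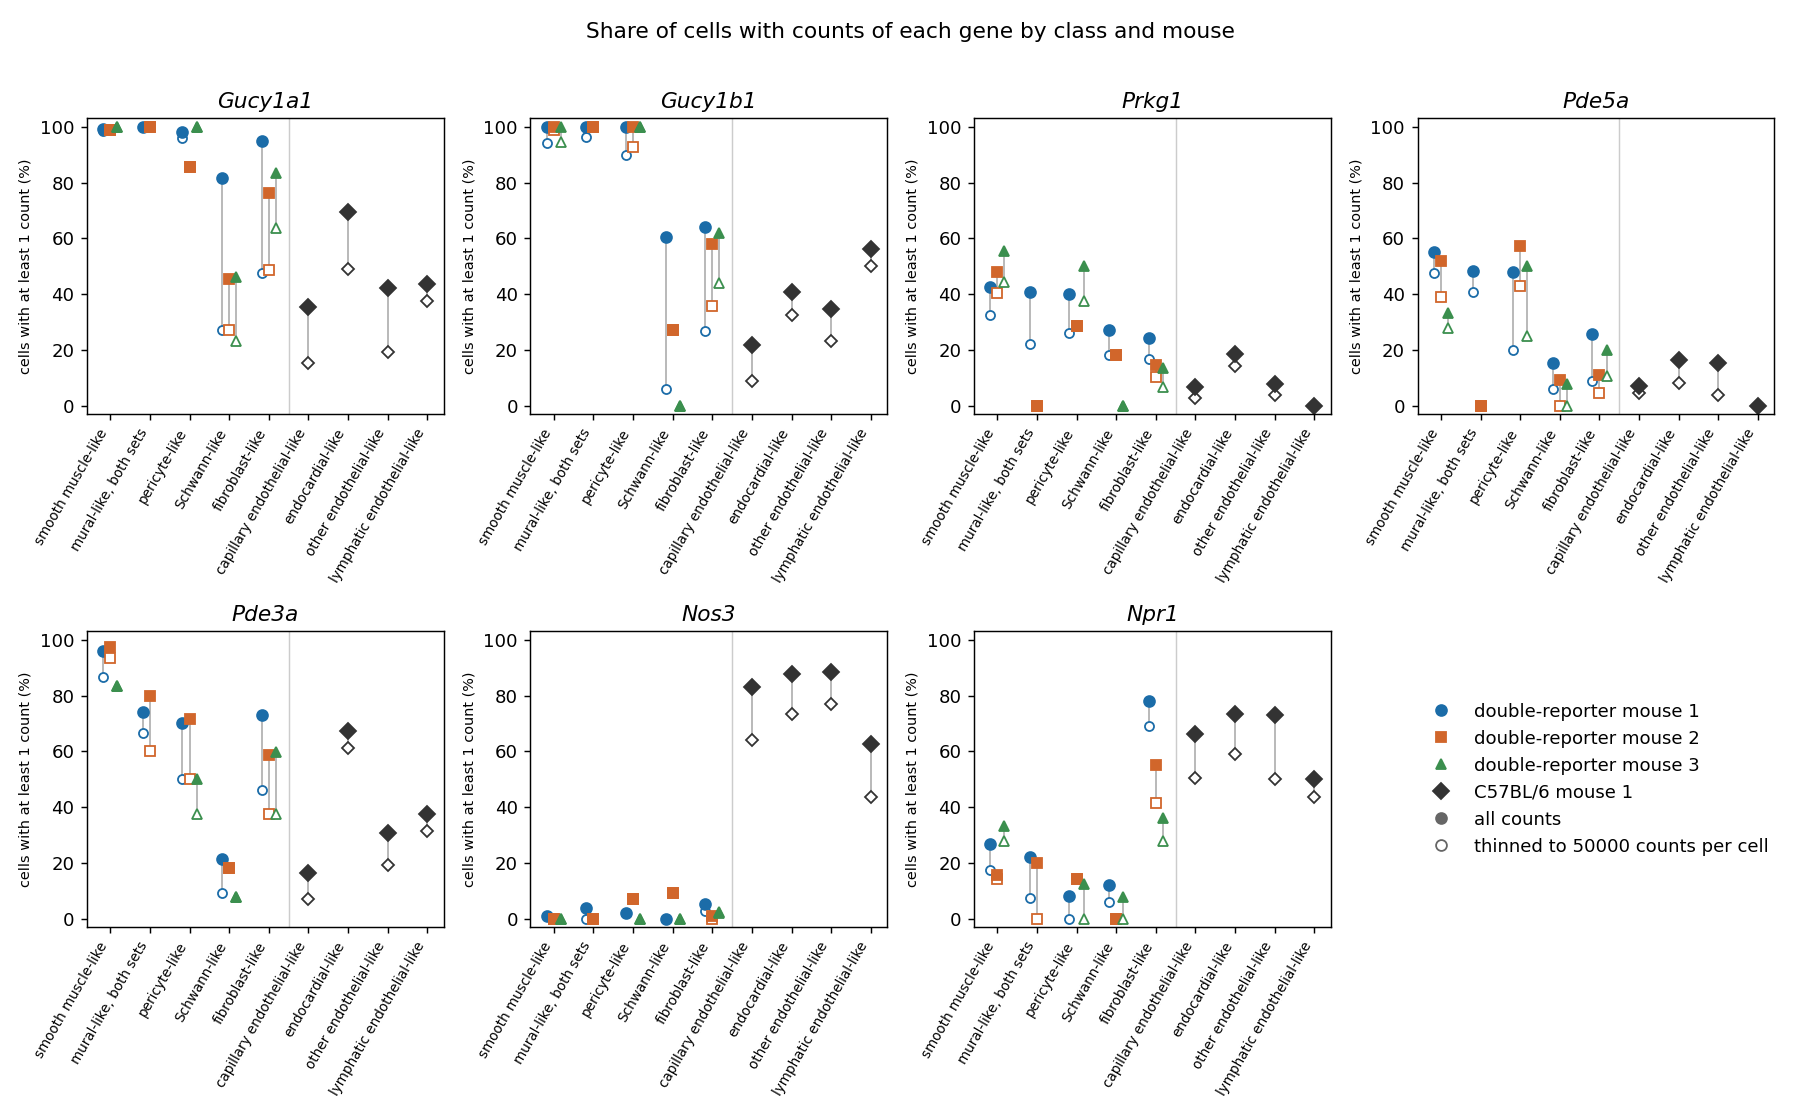
Share of cells (%) with at least 1 count of each gene by class and mouse, with all counts (filled) and after thinning each cell to 50000 counts (open). Both subunits were counted in nearly all mural-like cells at either depth, whereas in fibroblast-like cells the mean share with Gucy1a1 was 84.9% with all counts and 53.2% after thinning.

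Levels of different genes can be set side by side per kilobase of exon. On that scale smooth muscle-like cells held 266 CPM per kb ± 43.7 of Gucy1a1 and 174 ± 62.4 of Gucy1b1, then 45.0 ± 8.16 of Pde3a, 10.3 ± 5.98 of Prkg1, 7.87 ± 4.31 of Pde5a and 6.94 ± 4.68 of Npr1 (SD, n = 3 mice). The spreads of the last 3 genes overlap. The per-kilobase ratio of Gucy1a1 to Gucy1b1 was 1.83, 1.24 and 1.73 in smooth muscle-like cells of mice 1, 2 and 3, against 0.951, 0.569 and 0.987 in pericyte-like cells. Fibroblast-like cells had ratios of 2.00, 1.81 and 2.18. Every smooth muscle-like and fibroblast-like value was above 1 and every pericyte-like value below it. Mural-like cells with both marker sets had 1.30 in mouse 1 and 0.489 in mouse 2. The scale divides by 6968 exonic bases for Gucy1a1 and 3927 for Gucy1b1, whichever transcripts a cell held. A ratio of 1 therefore does not show equal amounts of the subunits. The ratios are given without a test.

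**Figure D3:**
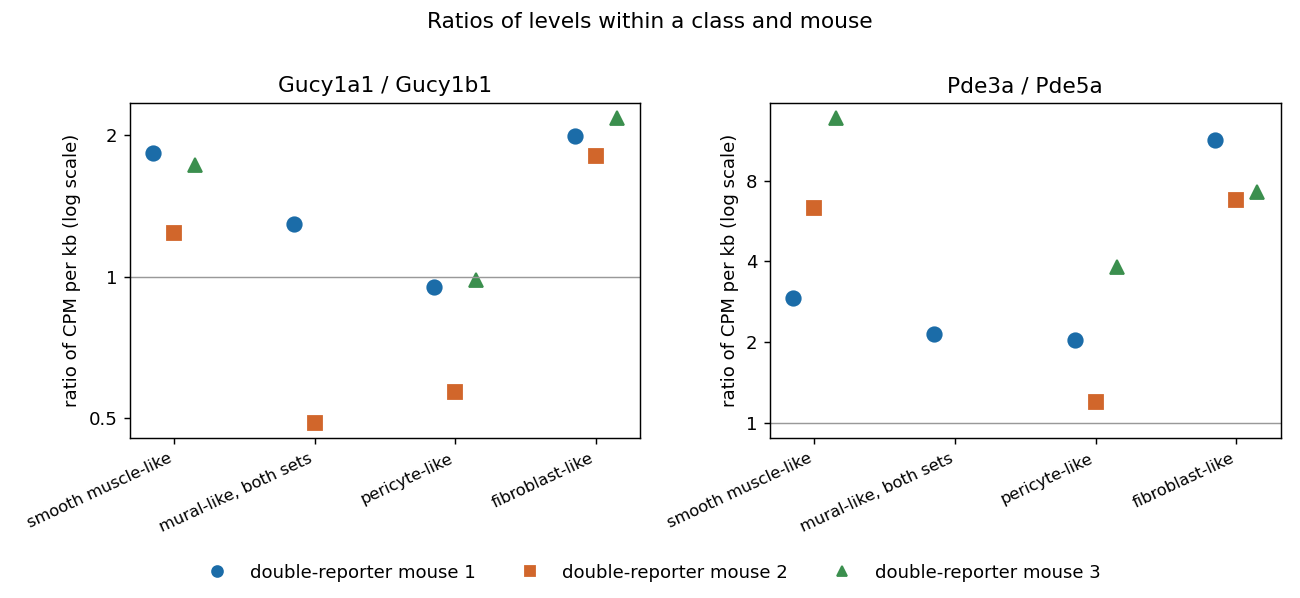
Ratio of CPM per kb, on a log scale, of Gucy1a1 to Gucy1b1 (left) and of Pde3a to Pde5a (right) in each class; each point is 1 double-reporter mouse. The subunit ratio was above 1 in smooth muscle-like and fibroblast-like cells and below 1 in pericyte-like cells of all 3 mice.

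Smooth muscle-like cells were not uniform in the subunits. Those with at least 1000 CPM of Rgs5, a regulator of G-protein signalling that marks mural cells, had 689, 1376 and 798 CPM of Gucy1b1 in mice 1, 2 and 3 (61, 40 and 15 cells). Those with less Rgs5 had 280 and 489 CPM in mice 1 and 2 (59 and 37 cells), and mouse 3 had under 5 such cells. Gucy1a1 stood at 1965, 2239 and 2373 CPM with high Rgs5 and at 1134 and 1912 CPM with low Rgs5. Pde3a stood at 484, 717 and 732 CPM with high Rgs5 and at 442 and 465 CPM with low Rgs5. These splits were made knowing that Rgs5 divides the cells and carry no test.

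Npr1, the natriuretic peptide receptor, was highest in fibroblast-like cells among the 4 classes of the double-reporter mice. It stood at 49.8, 42.0 and 7.77 CPM in smooth muscle-like cells, 0.270, 35.3 and 0.804 in pericyte-like cells, 0.287, 0 and 0.432 in Schwann-like cells, and 234, 154 and 51.9 in fibroblast-like cells of mice 1, 2 and 3. Within each mouse the fibroblast-like cells were highest, but their lowest mouse was close to the highest smooth muscle-like value. In pericyte-like cells of mouse 2 a single cell supplied 96.9% of the counts. Against Schwann-like cells, which held 5 counts over all 3 mice, Npr1 was higher in smooth muscle-like cells by a log2 change of 6.49 (SE 1.77), with an edgeR adjusted p of 0.05, at the threshold. Schwann-like cells were lower than fibroblast-like cells (log2 change -8.80, SE 1.88, edgeR adjusted p = 0.0216). Leaving out any 1 of the 3 mice ended both calls, with edgeR adjusted p between 0.116 and 0.25 in smooth muscle-like cells and between 0.0627 and 0.194 against fibroblast-like cells. Of 10 alternative settings, the call held in 5 for smooth muscle-like against Schwann-like cells. For Schwann-like against fibroblast-like cells it held in 7. The log2 change against fibroblast-like cells was -2.31 in smooth muscle-like cells (SE 1.30, edgeR adjusted p = 0.591) and -4.46 in pericyte-like cells (SE 1.57, edgeR adjusted p = 0.144), and neither passed. Over the 10 alternative settings the pericyte-like change lay between -8.70 and -3.26 and was called in 2, by DESeq2 (adjusted p = 0.00796) and with deep cells only, those of at least 100000 counts and 2000 genes (edgeR adjusted p = 0.0178). The smooth muscle-like change was called in 1, with only these 2 classes in the fit (edgeR adjusted p = 0.0231).

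Npr1 was uneven among fibroblast-like cells. Those with both Pdgfra and Tcf21, genes of interstitial cardiac fibroblasts, at 100 CPM or more had 51.8, 48.4 and 49.5 CPM of Npr1 in mice 1, 2 and 3 (at least 8 cells each). Those with both genes under 100 CPM had 263, 237.5 and 100.4 CPM (40, 35 and 34 cells). The subunit Gucy1b1 went the other way, with 110, 128.9 and 57.2 CPM in the cells with both genes and 20.3, 40.8 and 15.1 CPM in those with both genes low. The values of the 2 kinds of cells did not overlap for either gene. The mix of the 2 kinds moved with the mouse, since mouse 3 had most of the cells with both genes and the lowest Npr1 of the 3 mice; this was not tested.

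Nos3, the synthase itself, was counted in most endothelial-like cells and in few others. In C57BL/6 mouse 1 it stood at 255 CPM in capillary endothelial-like, 375 in endocardial-like, 277 in other endothelial-like and 191 in lymphatic endothelial-like cells. It was counted in 152 of 183 capillary endothelial-like cells (83.1%, exact binomial 95% interval 76.8 to 88.2) and in 43 of 49 endocardial-like cells (87.8%, 75.2 to 95.4). These are values of 1 mouse, so no class difference was tested, and the intervals cover counting error only. In the double-reporter mice 1 of 215 smooth muscle-like cells had Nos3 counts, 2 of 72 pericyte-like, 1 of 57 Schwann-like and 11 of 437 fibroblast-like cells. The higher values outside the endothelium rested on single cells: 308 counts in 1 pericyte-like cell of mouse 1 made 20.8 CPM, and 95 counts in 1 Schwann-like cell of mouse 2 made 67.5 CPM. The 3 of 74 pericyte-like cells of all mice with Nos3 counts had a median of 5885 CPM of summed endothelial markers, against 1059 CPM in those without such counts. The same medians were 1334 and 285.6 CPM for smooth muscle-like cells (2 cells with counts), 89.7 and 6.70 for Schwann-like (3) and 49.4 and 42.3 for fibroblast-like cells (12). For mural-like cells with both marker sets they were 14.4 CPM in the 1 cell with counts and 475.6 CPM in the others. Summed over all cells of a class, the 10 endothelial markers stood at 429 to 622 CPM in smooth muscle-like, 1134 to 1288 in pericyte-like, 5.23 to 25.5 in Schwann-like and 106 to 319 in fibroblast-like cells of the 3 mice, and their part in the results was not tested. Nos3 (chr5:24364810-24384474, plus strand) shares 1040 exonic bases with the antisense gene Gm15587 and 294 with Atg9b, and without a stated strand setting their reads cannot be told apart. The same holds for Npr1 and Gm16048 (559 shared exonic bases), Pde3a and Gm28523 (741) and Pde5a and 4930447N08Rik (55).

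Gucy1a1 was at 40.9 CPM in capillary endothelial-like and 205 CPM in endocardial-like cells, and Gucy1b1 at 18.2 and 108 CPM. Lymphatic endothelial-like cells of the same mouse had 173 and 82.2 CPM of the 2 subunits, and other endothelial-like cells 98.5 and 65.3 CPM. The top cell for each gene supplied 59.4% of the Gucy1a1 and 40.4% of the Gucy1b1 counts in other endothelial-like cells. In capillary endothelial-like cells these shares were 21.8% and 41.5%, and in endocardial-like cells 12.5% and 22.7%. Both subunits were counted in 20 of 183 capillary endothelial-like cells and 16 of 49 endocardial-like cells. The share of capillary endothelial-like cells with Gucy1a1 was 35.5% (28.6 to 42.9) with all counts and 15.3% after thinning. That is below the 57.8% and 25.9% of Schwann-like cells, whereas the levels were 40.9 CPM of Gucy1a1 and 18.2 CPM of Gucy1b1 in capillary endothelial-like cells beside means of 4.67 and 1.88 CPM in Schwann-like cells. Shares and levels thus went in opposite directions, and no order is read from them. The median depth was 302140 counts in the capillary endothelial-like cells, and 424798, 123819 and 150547 in the Schwann-like cells of mice 1, 2 and 3. In endocardial-like cells the share with Gucy1a1 was 69.4% (54.6 to 81.8) and 49.0% after thinning. Pde3a was also higher in endocardial-like cells, at 183 CPM, than in capillary endothelial-like cells, at 7.345 CPM. Lymphatic endothelial-like cells had 131 CPM and other endothelial-like cells 56.4 CPM, with 65.9% and 54.5% of the counts from a single cell. Npr1 stood at 186 CPM in endocardial-like and 187 CPM in capillary endothelial-like cells, and was counted in 73.5% (58.9 to 85.0) of endocardial-like and 66.1% (58.8 to 72.9) of capillary endothelial-like cells. Prkg1 and Pde5a were low in both, with 35.1 and 11.5 CPM in endocardial-like and 2.74 and 3.70 CPM in capillary endothelial-like cells. A single cell supplied 77.3% of the Pde5a counts in endocardial-like and 49.5% in capillary endothelial-like cells. For Prkg1 these shares were 24.9% and 55.2%.

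Prkg1, the kinase gene, was counted in fewer mural cells than the cyclase subunits and varied more between mice. It stood at 93.2, 58.9 and 184.5 CPM in smooth muscle-like cells, 56.9, 40.2 and 184.9 in pericyte-like cells, 33.8, 62.5 and 0 in Schwann-like cells and 13.7, 13.4 and 9.90 in fibroblast-like cells. All smooth muscle-like and pericyte-like values were above all fibroblast-like ones, while the Schwann-like values spanned both. Mural-like cells with both marker sets had 51.8 CPM in mouse 1 (27 cells) and 0 in mouse 2 (5 cells). It was counted in 48.7% ± 6.55 of smooth muscle-like, 39.5% ± 10.7 of pericyte-like, 15.2% ± 13.9 of Schwann-like and 17.6% ± 5.93 of fibroblast-like cells (SD, n = 3 mice). The log2 change against fibroblast-like cells was 3.13 in smooth muscle-like cells (SE 1.40, edgeR adjusted p = 0.392) and 2.86 in pericyte-like cells (SE 1.41, edgeR adjusted p = 0.309). No comparison of Prkg1 passed the test. In Schwann-like cells of mouse 2 a single cell supplied 79.5% of the counts. The share of the top cell was 40.4%, 51.4% and 50.9% in pericyte-like cells of mice 1, 2 and 3. In smooth muscle-like cells it was 10.1%, 11.7% and 33.0%. Prkg1 spans chr19:30564489-31765033 on the minus strand.

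Of the 2 phosphodiesterases, Pde3a had its highest level in smooth muscle-like cells of each mouse. It stood at 461, 595 and 665 CPM in smooth muscle-like cells, 197, 218 and 191 in pericyte-like cells, 0.860, 1.42 and 0.432 in Schwann-like cells and 96.6, 75.1 and 93.1 in fibroblast-like cells. The 4 classes did not overlap. Smooth muscle-like cells had 6.57-fold more than fibroblast-like cells (log2 change 2.72, SE 0.391, edgeR adjusted p = 0.00486), a call that ended without mouse 1 or without mouse 2 (edgeR adjusted p = 0.0995 and 0.104). Smooth muscle-like cells also had more than Schwann-like cells (9.29, SE 0.550, edgeR adjusted p = 8.43e-06), which in turn were lower than fibroblast-like cells (-6.57, SE 0.502, edgeR adjusted p = 5.07e-05). The Schwann-like cells held 15 counts of Pde3a over the 3 mice. Against pericyte-like cells the log2 change was 1.47 (SE 0.375), higher in smooth muscle-like cells of all 3 mice, with an edgeR adjusted p of 0.0903. DESeq2 called this difference (adjusted p = 0.0106), and also that between pericyte-like and fibroblast-like cells (0.00975), which edgeR did not (log2 change 1.25, SE 0.373, edgeR adjusted p = 0.0941). Without cells that carry markers of a second class the pericyte-like against fibroblast-like change was 0.415 (edgeR adjusted p = 0.85). The smooth muscle-like against pericyte-like one was then 2.62 (edgeR adjusted p = 0.256). That setting kept pericyte-like sums of mouse 1 (32 cells) and mouse 2 (6 cells) and lost that of mouse 3. The effect of the removed cells cannot be told from the loss of this mouse. DESeq2 was the 1 setting of 10 that called either. A single cell supplied 61.6% and 87.4% of the pericyte-like Pde3a counts in mice 2 and 3, and the median pericyte-like cell had 7.77, 36.3 and 3.41 CPM. The median smooth muscle-like cell had 331, 446 and 629 CPM.

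Pde5a, the cGMP-specific enzyme, was counted in a part of the cells of both mural classes. It stood at 122, 72.5 and 37.5 CPM in smooth muscle-like cells, 75.1, 140.2 and 38.6 in pericyte-like cells, 0.430, 0.710 and 0.432 in Schwann-like cells and 6.55, 8.55 and 9.91 in fibroblast-like cells. The mural classes overlapped each other and neither overlapped the other 2 classes. It was counted in 46.8% ± 11.7 of smooth muscle-like and 51.7% ± 4.81 of pericyte-like cells (SD, n = 3 mice). A single cell supplied 32.3%, 44.2% and 81.25% of the pericyte-like counts in mice 1, 2 and 3. In smooth muscle-like cells these shares were 7.97%, 18.2% and 40.5%. Mural-like cells with both marker sets had 82.8 CPM in mouse 1 (27 cells) and 0 in mouse 2 (5 cells). The log2 change between smooth muscle-like and pericyte-like cells was -0.13 (SE 0.783, edgeR adjusted p = 0.976). Against fibroblast-like cells it was 3.08 in smooth muscle-like cells (SE 0.846, edgeR adjusted p = 0.1) and 3.21 in pericyte-like cells (SE 0.851, edgeR adjusted p = 0.0674), so neither passed. DESeq2 called both (adjusted p = 5.62e-05 and 9.62e-06). Smooth muscle-like cells had more Pde5a than Schwann-like cells (7.15, SE 1.055, edgeR adjusted p = 0.00193), with 8 counts over the 3 mice in the Schwann-like cells. That call held in 9 of 10 alternative settings. Schwann-like cells were lower than fibroblast-like cells (-4.07, SE 0.952, edgeR adjusted p = 0.0332), a call that held in only 3 of 10 alternative settings. Among other settings, it ended without any 1 of the mice, with edgeR adjusted p between 0.105 and 0.278. Per kilobase, Pde3a exceeded Pde5a by 2.92, 6.33 and 13.7 times in smooth muscle-like cells and by 2.03, 1.20 and 3.83 times in pericyte-like cells of mice 1, 2 and 3. In each mouse the smooth muscle-like ratio was the higher one.

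Counted together, 3 of the 6 members with a fitted change were called higher in smooth muscle-like than in fibroblast-like cells (Gucy1a1, Gucy1b1 and Pde3a), where 1.13% of all genes tested were called higher. The median change of the 6 was 3.10, against -0.18 over all genes. In pericyte-like against fibroblast-like cells 2 were called higher, with 1.24% of all genes, and the medians were 2.84 and -0.54. In smooth muscle-like against Schwann-like cells 5 were called higher, with 4.62% of all genes, and in Schwann-like against fibroblast-like cells the same 5 (Gucy1a1, Gucy1b1, Pde5a, Pde3a and Npr1) were called lower, with 4.08% of all genes. Those 2 comparisons share the Schwann-like sums. In smooth muscle-like against pericyte-like cells edgeR called 0 of the 6, with 1.47% of all genes called in either direction. At an unadjusted p under 0.05 it was 1, Pde3a, which DESeq2 also called as its 1 member. The members were picked for their pathway with earlier results of these data known, and the counts are given as a description.

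**Figure D4:**
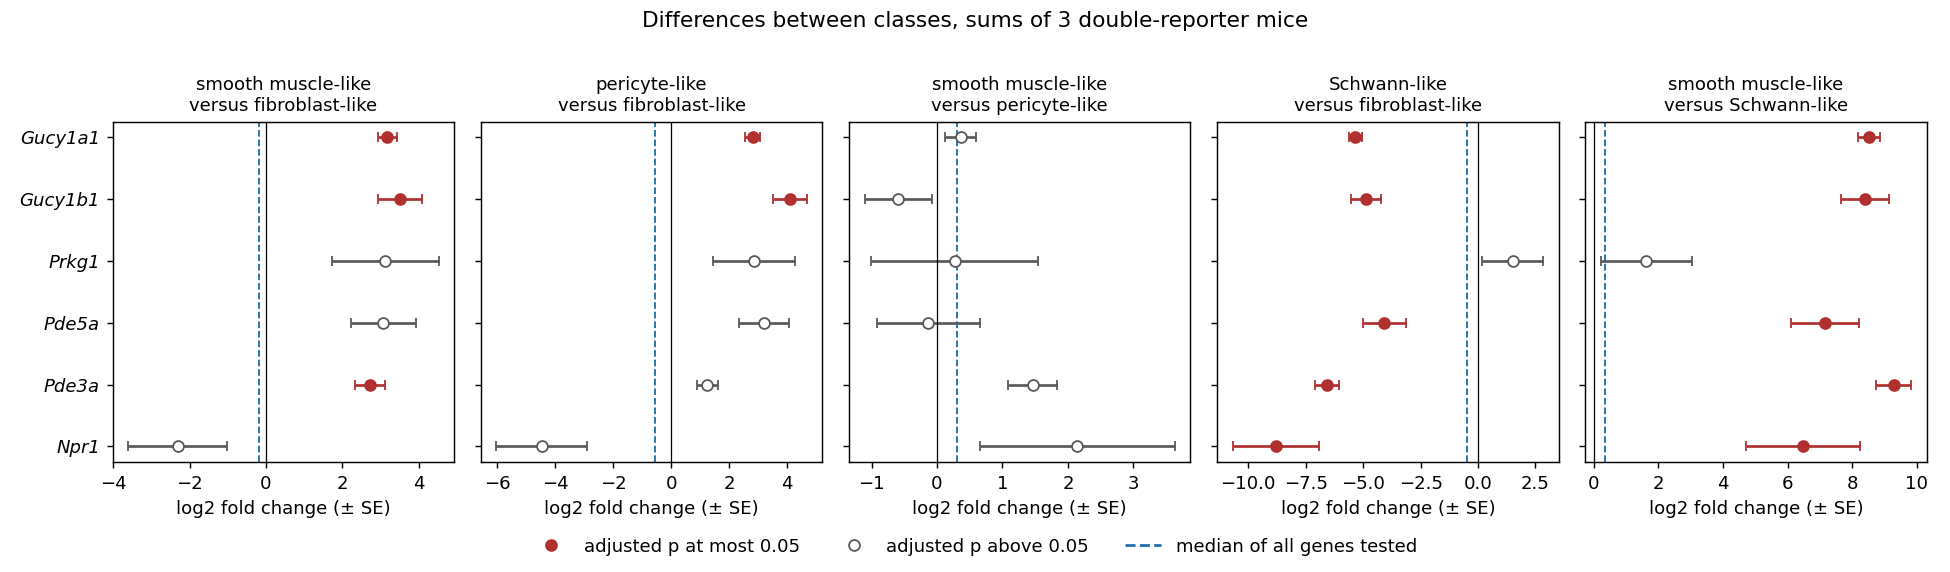
Log2 fold change with its SE of the 6 members with a fitted change in the 5 comparisons, from sums of 3 double-reporter mice; filled points have an adjusted p of at most 0.05, and the dashed line is the median of all genes tested. Gucy1a1 and Gucy1b1 were called in every comparison except smooth muscle-like versus pericyte-like, and Prkg1 in none.

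Across all classes and mice with at least 5 cells, 19 sums, the gene whose level was most like that of Gucy1a1 among 8746 genes was Gucy1b1 (Pearson r = 0.976 of log2(CPM + 1)), followed by Ppp1r14a, an inhibitor of myosin phosphatase (0.966), and Pde3a (0.965). For Pde3a the 3 most alike were Gucy1a1, Ppp1r14a and Actn1 (0.952), for Gucy1b1 they were Gucy1a1, Ndufa4l2 (0.968), a marker used for mural cells, and Ppp1r14a (0.950). Pde5a was most like Mark1 (0.894), Tmem136 and Txnrd3, Prkg1 most like Zfp707 (0.853), Kdm4b and Ndufs7, and Npr1 most like Tmtc1 (0.902), Gm16897 and Smtnl2. Nos3 was most like its overlapping antisense gene Gm15587 (0.987), the endothelial marker Emcn (0.901) and Arap3. The sums share mice, plates and class sizes, so these values describe likeness over classes and carry no p.

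Of the wider pathway list, 45 of the 56 measured genes were tested. In smooth muscle-like against fibroblast-like cells 7 were called higher, where 1.13% of all genes tested were, and 5 of the 7 were among the 13 genes of the kinase and its substrates. The median change of the 45 was 0.32, against -0.18 over all genes. Kcnmb1, the beta subunit of the large-conductance potassium channel, had 341 CPM ± 35.6 on average in smooth muscle-like cells and 2.10 ± 2.93 in fibroblast-like cells (SD, n = 3; edgeR adjusted p = 0.00192). Mrvi1, a substrate through which the kinase restrains calcium release, averaged 475 ± 54.4 and 23.99 ± 7.84 CPM (edgeR adjusted p = 0.00104), and Ppp1r12a, the targeting subunit of myosin phosphatase, 558 ± 67.6 and 31.8 ± 10.05 CPM (edgeR adjusted p = 0.00176). Pln, which restrains the calcium pump of the store, had a mean of 613 ± 48.8 and 4.91 ± 5.60 CPM (edgeR adjusted p = 0.0461). Of 10 alternative settings, the calls held in 9 for Kcnmb1, 10 for Mrvi1, 8 for Ppp1r12a and 7 for Pln. The call for Pln ended without mouse 1 or mouse 2 (edgeR adjusted p = 0.362 and 0.272) and with deep cells only (edgeR adjusted p = 0.0604), that for Kcnmb1 without mouse 2 (edgeR adjusted p = 0.0595), and that for Ppp1r12a without mouse 2 (edgeR adjusted p = 0.0611) or without second-class cells (edgeR adjusted p = 0.0538).

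Outside the kinase list Corin, a protease that activates natriuretic peptides in the heart, had 117 CPM ± 57.1 on average in smooth muscle-like cells and 1.40 ± 2.21 in fibroblast-like cells (SD, n = 3; edgeR adjusted p = 0.0221). It was counted in 35.0% of smooth muscle-like cells, so its level came from a part of them. Gucy2g, a membrane guanylate cyclase, averaged 80.7 ± 15.3 and 0.0974 ± 0.0330 CPM in the same classes (edgeR adjusted p = 0.0338) and was counted in 31.3% of smooth muscle-like cells. Both calls held in 6 of 10 alternative settings and ended without any 1 of the 3 mice, with edgeR adjusted p between 0.114 and 0.35 for Corin and between 0.188 and 0.323 for Gucy2g. They also ended without the mouse block for Corin (edgeR adjusted p = 0.0708) and with deep cells only for Gucy2g (edgeR adjusted p = 0.0957).

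Pericyte-like cells shared 3 of the 7 calls made in smooth muscle-like cells, and the list as a whole was not higher. Against fibroblast-like cells 3 of the 45 were called higher, with 1.24% of all genes tested, and 2 lower, with 2.33%. The median change of the 45 was -0.775, below the -0.538 over all genes. For the 13 genes of the kinase and its substrates the median was -0.775, whereas it was 2.97 in smooth muscle-like cells. The 3 genes called higher belong to these 13 and are exceptions among them. Kcnmb1 averaged 157 CPM ± 105 (edgeR adjusted p = 0.00216), Mrvi1 203.9 ± 67.0 (edgeR adjusted p = 0.00283) and Ppp1r12a 141 ± 64.8 (edgeR adjusted p = 0.0221) in pericyte-like cells (SD, n = 3), beside the fibroblast-like levels above. The call held in all 10 alternative settings for Kcnmb1, in 8 for Mrvi1 and in 3 for Ppp1r12a. For Mrvi1 it ended without mouse 1 or mouse 2 (edgeR adjusted p = 0.104 and 0.0548). For Ppp1r12a it ended without any 1 of the mice (edgeR adjusted p between 0.126 and 0.261). Without second-class cells the change was 0.729 (edgeR adjusted p = 0.803), against 2.23 with them, in a setting that also lost the pericyte-like sum of mouse 3. Npr2, the receptor of C-type natriuretic peptide, was lower, at 0.474 ± 0.443 CPM in pericyte-like and 54.4 ± 1.09 CPM in fibroblast-like cells (edgeR adjusted p = 0.0107). That call held in 5 of 10 alternative settings and ended without any 1 of the mice (edgeR adjusted p between 0.0556 and 0.15). Ddah1, which degrades an inhibitor of nitric oxide synthases, was lower at 0.226 ± 0.283 and 48.9 ± 47.9 CPM (edgeR adjusted p = 0.0372), a call held by 1 of 10 alternative settings.

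Between the 2 mural classes 3 pathway genes were called, all 3 higher in smooth muscle-like cells, where 0.975% of all genes tested were. These were Corin, at 117 CPM ± 57.1 in smooth muscle-like and 0.837 ± 1.17 CPM in pericyte-like cells (edgeR adjusted p = 0.0304), Ppp1cb, the catalytic subunit of myosin phosphatase (663 ± 243 and 34.3 ± 25.8 CPM, edgeR adjusted p = 0.019), and Ppp1r12b, another targeting subunit (705 ± 128 and 51.2 ± 40.6 CPM, edgeR adjusted p = 0.0329; SD, n = 3 each). The pericyte-like sums hold 8 to 50 cells, and without the smallest of them the calls for Ppp1cb and Ppp1r12b ended (edgeR adjusted p = 0.0762 and 0.118). Of 10 alternative settings, the call held in 7 for Ppp1cb, 3 for Ppp1r12b and 2 for Corin.

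In Schwann-like against fibroblast-like cells the median change of the 45 was -1.64, beside -0.48 over all genes. Of the 45, 6 were called lower, where 4.08% of all genes tested were. Mrvi1 was among them, at 0.667 CPM ± 0.217 in Schwann-like and 23.99 ± 7.84 in fibroblast-like cells (edgeR adjusted p = 0.000341). Pde9a, another cGMP-specific phosphodiesterase, was at 0.144 ± 0.249 and 34.4 ± 18.5 (edgeR adjusted p = 0.00777). Gucy1a2, an alternative alpha subunit of soluble guanylate cyclase, was at 0.0239 ± 0.0414 and 8.27 ± 1.88 (edgeR adjusted p = 0.0394). Each spread is an SD with n = 3. Of 10 alternative settings, the call held in 9 for Mrvi1, 5 for Pde9a and 4 for Gucy1a2. Without any 1 of the mice it ended for Pde9a (edgeR adjusted p between 0.0604 and 0.135) and for Gucy1a2 (edgeR adjusted p between 0.0885 and 0.29). Ppp1r14a, Pde1a and Ddah1 were the other 3. In smooth muscle-like against Schwann-like cells 12 were called higher, with 4.62% of all genes tested, and 1 lower, with 2.72%. The lower one, named after its value was seen, was Pde8a, a phosphodiesterase for cAMP, at 0.666 CPM ± 0.424 in smooth muscle-like and 97.9 ± 76.5 in Schwann-like cells (edgeR adjusted p = 0.0165). Gucy1a2 averaged 46.9 ± 40.8 CPM in smooth muscle-like cells and was called higher there (edgeR adjusted p = 0.0111). The call held in 7 of 10 alternative settings for Pde8a and in 6 for Gucy1a2.

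**Figure D5:**
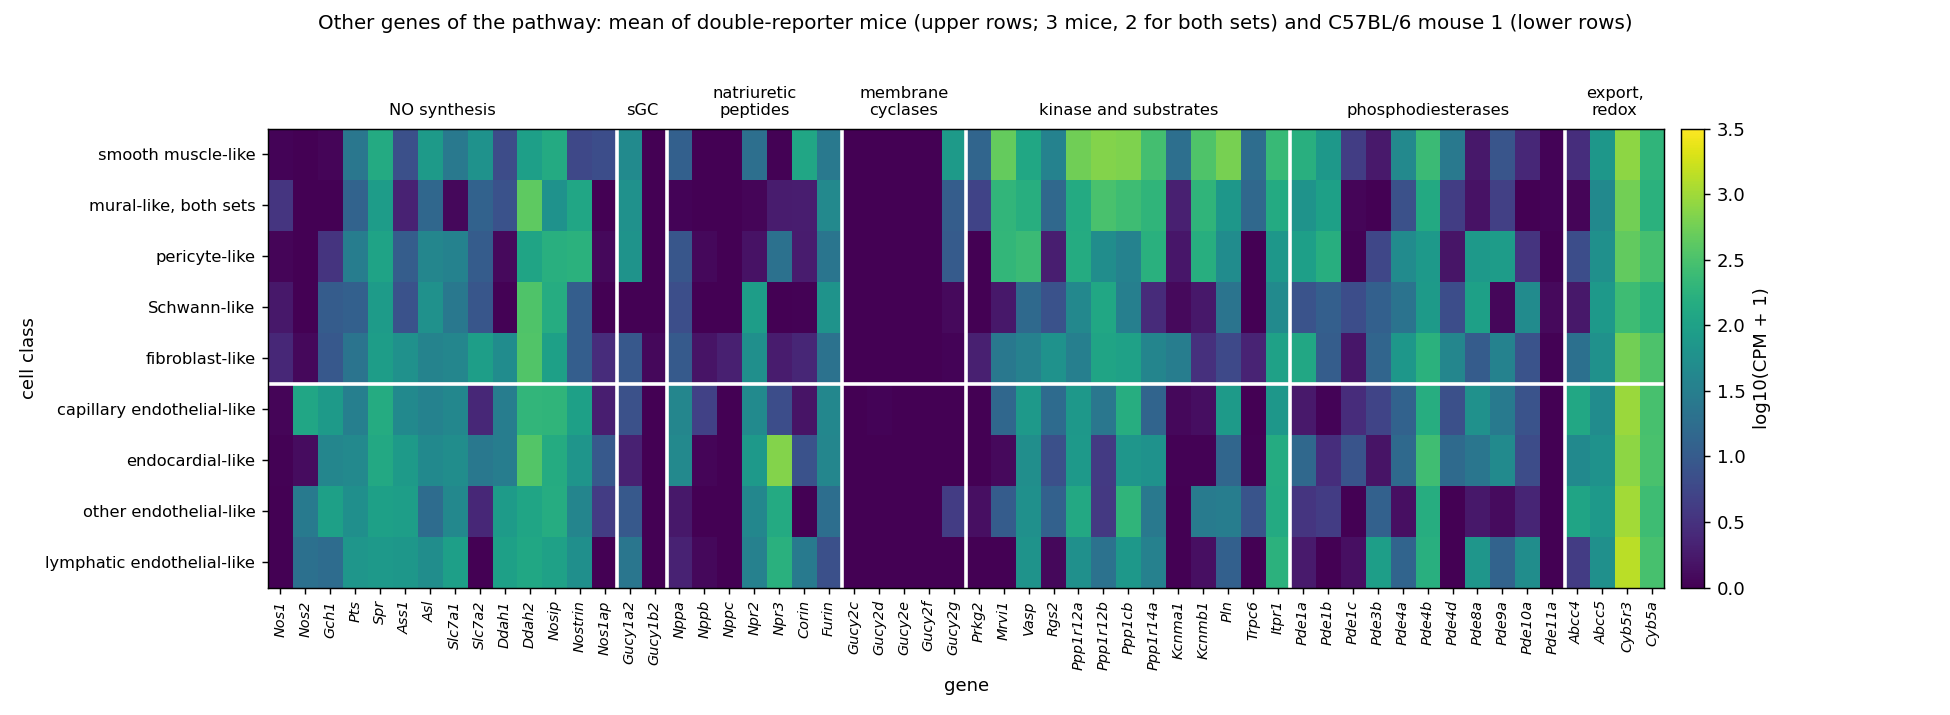
Mean level of the 56 other pathway genes as log10(CPM + 1) by class, grouped by role; upper rows are means of double-reporter mice (3 mice, or 2 for mural-like cells with both marker sets), lower rows are C57BL/6 mouse 1. Kinase substrates such as Pln and Ppp1r12a were brightest in smooth muscle-like cells, at 613 and 558 CPM, and Npr3 in endocardial-like cells, at 700 CPM.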

How the data were processed

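The authors deposited whole-number read counts per Ensembl gene and cell, which come from 1307 cells of 8 mice. The submitters' processing notes name bcl2fastq, Bowtie, Bowtie2, Subread, featureCounts and GRCm38; their versions, order and strand setting are not given in the sources used here. Of the 46517 genes, 46005 had a symbol and 16915 had no counts. Cells were classed by 94 markers in 13 sets. Cells with the markers of 2 classes about equally entered no class, apart from smooth muscle with pericyte markers and endothelial with lymphatic markers.

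Counts were summed per mouse and class of at least 5 cells. The 12 sums of the 3 double-reporter mice were fitted together by class and mouse (6 residual degrees of freedom) with edgeR 4.0.16 in R 4.3.3, TMM scaling and its filter on low counts. Genes were called at an adjusted p of at most 0.05. Same-numbered sums come from the same animal, and all 18 same-mouse correlations of deviations from the class means were above 0 (0.0658 to 0.463). DESeq2 1.42.0 was an alternative. Counts for smooth muscle-like against fibroblast-like cells were also simulated, with 17227 genes and a dispersion (spread of counts) of 0.2. The test recovered 0% of changes of log2 size 1, 35.8% of size 2 and 92.5% of size 3, with 2 false calls. Small differences could thus be missed. Large ones could be missed in genes with more spread. In the real fit, changes of 3.13 for Prkg1 (SE 1.40) and 3.08 for Pde5a (SE 0.846) were not called. Exact binomial 95% intervals cover counting error only.

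The 7 genes, the pathway lists and the markers were chosen with earlier results of these data known. Named were the 7 genes, at most the 6 called pathway genes of largest log2 change per comparison, and the 3 genes most like each member among those with a mean of at least 20 CPM. The Rgs5, Pdgfra and Tcf21 divisions are descriptions.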

Additional observations from a re-analysis of the deposited data

How the results depend on the processing

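The count of genes called depended on the setting, and the cause was not tested beyond what a setting's construction shows (fewer cells or mice). Smooth muscle-like against fibroblast-like cells gave 379 calls, with 1188 by DESeq2, 716 with only both compared classes in the fit and 236 with cells of at least 100000 counts and 2000 genes. Pericyte-like against fibroblast-like cells gave 575, with 2246 by DESeq2, 338 with at least 10 cells per sum, 365 with both classes alone, 214 without cells that carry markers of a second class and 379 with the deep cells. Smooth muscle-like against pericyte-like cells gave 236, and 1698, 106, 119 and 134 under the first 4 of those settings. Without second-class cells there was no pericyte-like sum of mouse 3. Schwann-like against fibroblast-like cells gave 899, with 2463 by DESeq2, 516 with both classes alone, 429 without second-class cells and 599 with deep cells. Smooth muscle-like against Schwann-like cells gave 1182, with 2905 by DESeq2, 594 with both classes alone and 766 without second-class cells. Leaving out 1 mouse at a time gave 40 to 139, 120 to 248, 19 to 93, 214 to 456 and 321 to 618 calls in the 5 comparisons in this order. Without the mouse as a replicate block the counts were 366, 660, 327, 1019 and 1408; of the members, Pde5a in pericyte-like against fibroblast-like cells was then called (edgeR adjusted p = 0.0355).

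Gucy1a1 was called in all 10 alternatives in each comparison with fibroblast-like or Schwann-like cells. The Pde5a difference between smooth muscle-like and pericyte-like cells had no stable sign: its log2 change was 0.174 without second-class cells, 0.341 with deep cells, and -0.609 to 0.454 when 1 mouse was left out. DESeq2's size factors moved the median change of all genes from -0.538 to -0.415 for pericyte-like against fibroblast-like cells and from 0.313 to 0.202 for smooth muscle-like against pericyte-like cells. Schwann-like sums held 8 counts of Pde5a, 5 of Npr1, 15 of Pde3a and 34 of Gucy1b1, which limits their fold changes.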

Other observations

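In C57BL/6 mouse 1 several pathway genes stood apart between the endothelial classes, as values of 1 mouse without a test. Npr3, the clearance receptor of natriuretic peptides, was at 700 CPM in endocardial-like cells (counted in 93.9% of them) and at 5.62 CPM in capillary endothelial-like cells (22.9%). Lymphatic and other endothelial-like cells lay between these, at 164 CPM (43.8%) and 136 CPM (34.6%). Nos2, the inducible synthase, was at 115 CPM in capillary endothelial-like cells (44.3%) and at 0.291 CPM in endocardial-like cells (10.2%). Gch1, the first enzyme in making the synthases' cofactor tetrahydrobiopterin, was at 79.7 CPM in capillary endothelial-like, 97.96 CPM in other endothelial-like and 39.0 CPM in endocardial-like cells. Abcc4, which exports cyclic nucleotides, was at 124 CPM in capillary endothelial-like and 45.3 CPM in endocardial-like cells.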
